A study of Mus musculus with 12 samples.

Results

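The 9 genes described here encode complement components and receptors: the C1q chains C1qa, C1qb and C1qc, C3, C4b, the alternative pathway factors Cfb and Cfp, and the receptors C3ar1 and C5ar1. They were taken by name from a table of 34327 mouse genes. C3 was chosen by its TPM in collagen gels and on plates with IL-4, where it had been seen far higher in gels, and the other 8 joined it as genes of the same system. Its values in that comparison are therefore given as a description with no test. Of the 9 genes, 7 reached a mean of at least 1 TPM, the abundance of its transcripts relative to all transcripts of a library, over the libraries, and C4b and Cfb did not.

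All libraries were polyA RNA from bone marrow-derived macrophages (BMDMs) of C57BL/6J mice, with no mutant allele named, which had been grown in medium conditioned by L929 cells. Macrophages were cultured for 24 hours on tissue culture (TC) plates, inside floating gels of rat tail collagen I at 2 mg/ml (low collagen), or inside such gels at 7 mg/ml (high collagen), to ask whether macrophages respond to the state of the matrix around them. In each setting the cells were untreated or given IL-4, a type 2 cytokine that drives a tissue repair program in macrophages, at 20 ng/ml, which made 6 conditions with 2 libraries each and 12 libraries in all. The labels do not say whether the libraries of a condition came from separate mice or cultures, so the p-values measure the spread between these libraries, which may be technical. Gels and plates differed in vessel, cell density and RNA harvest as well as in matrix, and these cannot be told apart.

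Complement is a cascade of plasma and tissue proteins that marks particles for uptake and recruits leukocytes. The classical pathway starts when C1q, built from the products of C1qa, C1qb and C1qc, binds a target, after which the products of C4b and C2 form an enzyme that cleaves C3. C3 is the point where all pathways meet: its large fragment coats targets and its small fragment C3a signals through C3ar1. The alternative pathway amplifies C3 cleavage with factor B, from Cfb, and properdin, from Cfp, and the later fragment C5a signals through C5ar1. Most plasma complement is made by the liver, whereas C1q and properdin come largely from myeloid cells.

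The genes lie on 5 chromosomes in GRCm38, all on the minus strand. C1qb (ENSMUSG00000036905), C1qc (ENSMUSG00000036896) and C1qa (ENSMUSG00000036887) are neighbours at chr4:136880129-136886187, chr4:136889804-136893065 and chr4:136895917-136898803. Chromosome 17 holds C3 (ENSMUSG00000024164) at chr17:57203970-57228136, C4b (ENSMUSG00000073418) at chr17:34728380-34743882 and Cfb (ENSMUSG00000090231) at chr17:34856374-34862518. Cfp (ENSMUSG00000001128) is at chrX:20925454-20931555, C3ar1 (ENSMUSG00000040552) at chr6:122847138-122856161 and C5ar1 (ENSMUSG00000049130) at chr7:16246743-16259540.

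RefSeq (GRCm38.p6) start sites were at hand for 6 of the 9 genes. The 250 bases before the start are shown for C3, Cfp and C1qb, the genes with the widest range, with opposite IL-4 responses in gels and on plates, and with the highest level. They are chr17:57228137-57228386, chrX:20931556-20931805 and chr4:136886201-136886450, written 5′ to 3′ on the minus strand, and capitals mark motif matches.
C3: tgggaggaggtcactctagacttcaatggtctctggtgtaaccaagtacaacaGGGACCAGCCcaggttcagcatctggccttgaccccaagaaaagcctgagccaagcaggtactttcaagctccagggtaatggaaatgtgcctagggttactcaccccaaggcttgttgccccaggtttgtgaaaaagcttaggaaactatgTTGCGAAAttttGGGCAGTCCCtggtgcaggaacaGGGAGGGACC
Cfp: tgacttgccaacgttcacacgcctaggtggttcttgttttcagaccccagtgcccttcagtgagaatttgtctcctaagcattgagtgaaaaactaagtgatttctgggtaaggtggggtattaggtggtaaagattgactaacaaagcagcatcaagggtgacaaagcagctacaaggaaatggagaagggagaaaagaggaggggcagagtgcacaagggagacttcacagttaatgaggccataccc
C1qb: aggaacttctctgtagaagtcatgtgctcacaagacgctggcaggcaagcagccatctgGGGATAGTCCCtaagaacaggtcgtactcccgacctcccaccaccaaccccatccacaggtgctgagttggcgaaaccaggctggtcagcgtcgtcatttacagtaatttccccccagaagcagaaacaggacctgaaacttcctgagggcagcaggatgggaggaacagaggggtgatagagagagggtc
A match is a description of letters and not a binding site. Some windows not shown reach into the gene as GENCODE places it, by 202 of 250 bases for C5ar1, 151 for C1qc and 4 for C3ar1. The NF-kappaB match of C1qc, at 40 to 31 bases before the RefSeq start, lies in that part. Searched on both strands, the C/EBP letters TTGCNNAA occurred in C3 at 45 to 38 bases before its start, in 1 of the 6 windows and in 9.56% of 32851 promoters. The NF-kappaB letters GGGANNNNCC occurred in C3 at 197 to 188, 33 to 24 and 10 to 1 bases before the start. C1qb had them on both strands at overlapping positions from 191 to 181, C1qc also had a match, and 17.6% of all promoters had one. The PU.1 letters GAGGAAG occurred only in C1qc among the 6, and in 10.6% of promoters. The STAT letters TTCNNNNGAA (5.85% of promoters) and TTCNNNGAA (7.02%) occurred in 0 of the 6 windows, which says only that these letters are not there.

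TPM values take account of transcript length and add up to the same total in each library, so levels can be compared between genes, but they hold no sequencing depth and give no counting interval. A rise of TPM in bulk RNA cannot tell more cells of a type from more RNA per cell. All 7 macrophage markers checked were expressed (summed level 17459 to 53481 TPM). Fibroblast markers summed to 0.735 to 3.01 TPM, with Thy1 highest (0.675 to 2.22 TPM) and Dcn and Lum at or near 0. Of this list only Pdgfrb had all gel libraries (0.101 to 0.474 TPM) above all plate libraries (0 to 0.0278 TPM). Dendritic cell markers summed to 0.865 to 1.95 TPM. Eosinophil, basophil and mast cell markers summed to 0.924 to 3.46 TPM. Among these Ccr3 had 1.45 to 1.82 TPM on plates, Siglecf reached 2.22 TPM in gels and Epx was at 0. Lymphocyte markers summed to 0.191 to 1.03 TPM, with Ms4a1 at up to 0.622 TPM and Ncr1 at 0.

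C1q transcripts were the most abundant of the complement genes in every condition. C1qb, the B chain, had 2914 and 2910 TPM in the libraries of untreated TC plates and 2143 and 1984 TPM on plates with IL-4. In low-collagen gels it had 4187 and 4049 TPM untreated and 3924 and 4166 TPM with IL-4, and in high-collagen gels 4442 and 4075 TPM untreated and 4213 and 3724 TPM with IL-4. Thus all 8 gel libraries lay above all 4 plate libraries, the gel conditions overlapped with one another, and plates with IL-4 were lowest.

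C1qc, the C chain, followed the same order at 2048 and 2191 TPM on untreated plates, 1783 and 1612 TPM on plates with IL-4, and 2927 to 3444 TPM over the gel libraries. C1qa, the A chain, had 1478 and 1501 TPM on untreated plates, 972 and 896 TPM on plates with IL-4, and 1667 to 2132 TPM over the gel libraries. The C1q chains summed to 4493 to 6602 TPM per plate library and 8317 to 10018 TPM per gel library, which was 78.1% to 88.8% of the TPM of all 9 genes.

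C3 had the widest range of the 7 expressed genes, with the highest library 40.0 times the lowest. It had 22.3 and 20.1 TPM on untreated plates and 9.91 and 12.1 TPM on plates with IL-4. Low-collagen gels had 29.7 and 39.9 TPM untreated and 228 and 156 TPM with IL-4, whereas high-collagen gels had 77.6 and 89.7 TPM untreated and 396 and 366 TPM with IL-4. No 2 conditions overlapped: C3 was highest in high-collagen gels under IL-4 (381 ± 21.5 TPM, SD, n = 2), then in low-collagen gels with IL-4 (192 ± 51.5), untreated high-collagen gels (83.7 ± 8.60), untreated low-collagen gels (34.8 ± 7.19), untreated plates (21.2 ± 1.58) and plates with IL-4 (11.0 ± 1.52).

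Cfp, which encodes properdin, the stabiliser of the alternative pathway enzyme, had 890 and 872 TPM on untreated plates and 623 and 580 TPM on plates with IL-4. It had 802 and 800 TPM in untreated low-collagen gels and 1127 and 1167 TPM with IL-4, and 616 and 512 TPM in untreated high-collagen gels and 726 and 673 TPM with IL-4. Low-collagen gels with IL-4 stood above all other conditions, and plates with IL-4 and untreated high-collagen gels overlapped at the low end. Cfp was above C3 in every library, and the ratio of C3 to Cfp went from 0.0183 ± 0.00347 on plates with IL-4 to 0.545 ± 0.00138 in high-collagen gels with IL-4 (SD, n = 2).

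C4b and Cfb were close to the floor of the table. C4b, the classical pathway partner of C2, had 0.253 to 1.27 TPM over the 12 libraries, and no condition was separate from the next in order. Cfb, which encodes the alternative pathway protease, had 0 to 1.91 TPM and was listed at 0 in 2 libraries. Both share sequence with another gene, so their low values are uncertain. Of the 31-base words of C4b transcripts, 48.3% also occur in C4a, which was not among the genes listed. Of those of Cfb, 75.5% occur in the overlapping gene Gm20547. That gene was itself listed at 0 to 0.0665 TPM and was named after its values were seen. The share was 0 for C3, Cfp, C5ar1 and the C1q genes and 0.470% for C3ar1.

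The receptors behaved differently from each other. C5ar1, the receptor that draws leukocytes toward C5a, had 623 and 630 TPM on untreated plates and 236 and 217 TPM on plates with IL-4. Low-collagen gels had 188 and 189 TPM untreated and 39.4 and 42.5 TPM with IL-4, and high-collagen gels had 220 and 182 TPM untreated and 59.6 and 52.2 TPM with IL-4. Untreated plates stood alone at the top, untreated high-collagen gels overlapped with plates with IL-4 and with untreated low-collagen gels, which were separate from each other, and the gels with IL-4 were lowest.

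C3ar1, the C3a receptor, had the narrowest range of the expressed genes, with the highest library 1.44 times the lowest. It had 267 and 274 TPM on untreated plates, 282 and 295 TPM on plates with IL-4, 367 and 382 TPM in untreated low-collagen gels and 359 and 354 TPM in untreated high-collagen gels. With IL-4 it had 301 and 265 TPM in low-collagen gels and 291 and 289 TPM in high-collagen gels. The untreated gels were highest, and the other 4 conditions overlapped with their neighbours in the order.

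**Figure D1:**
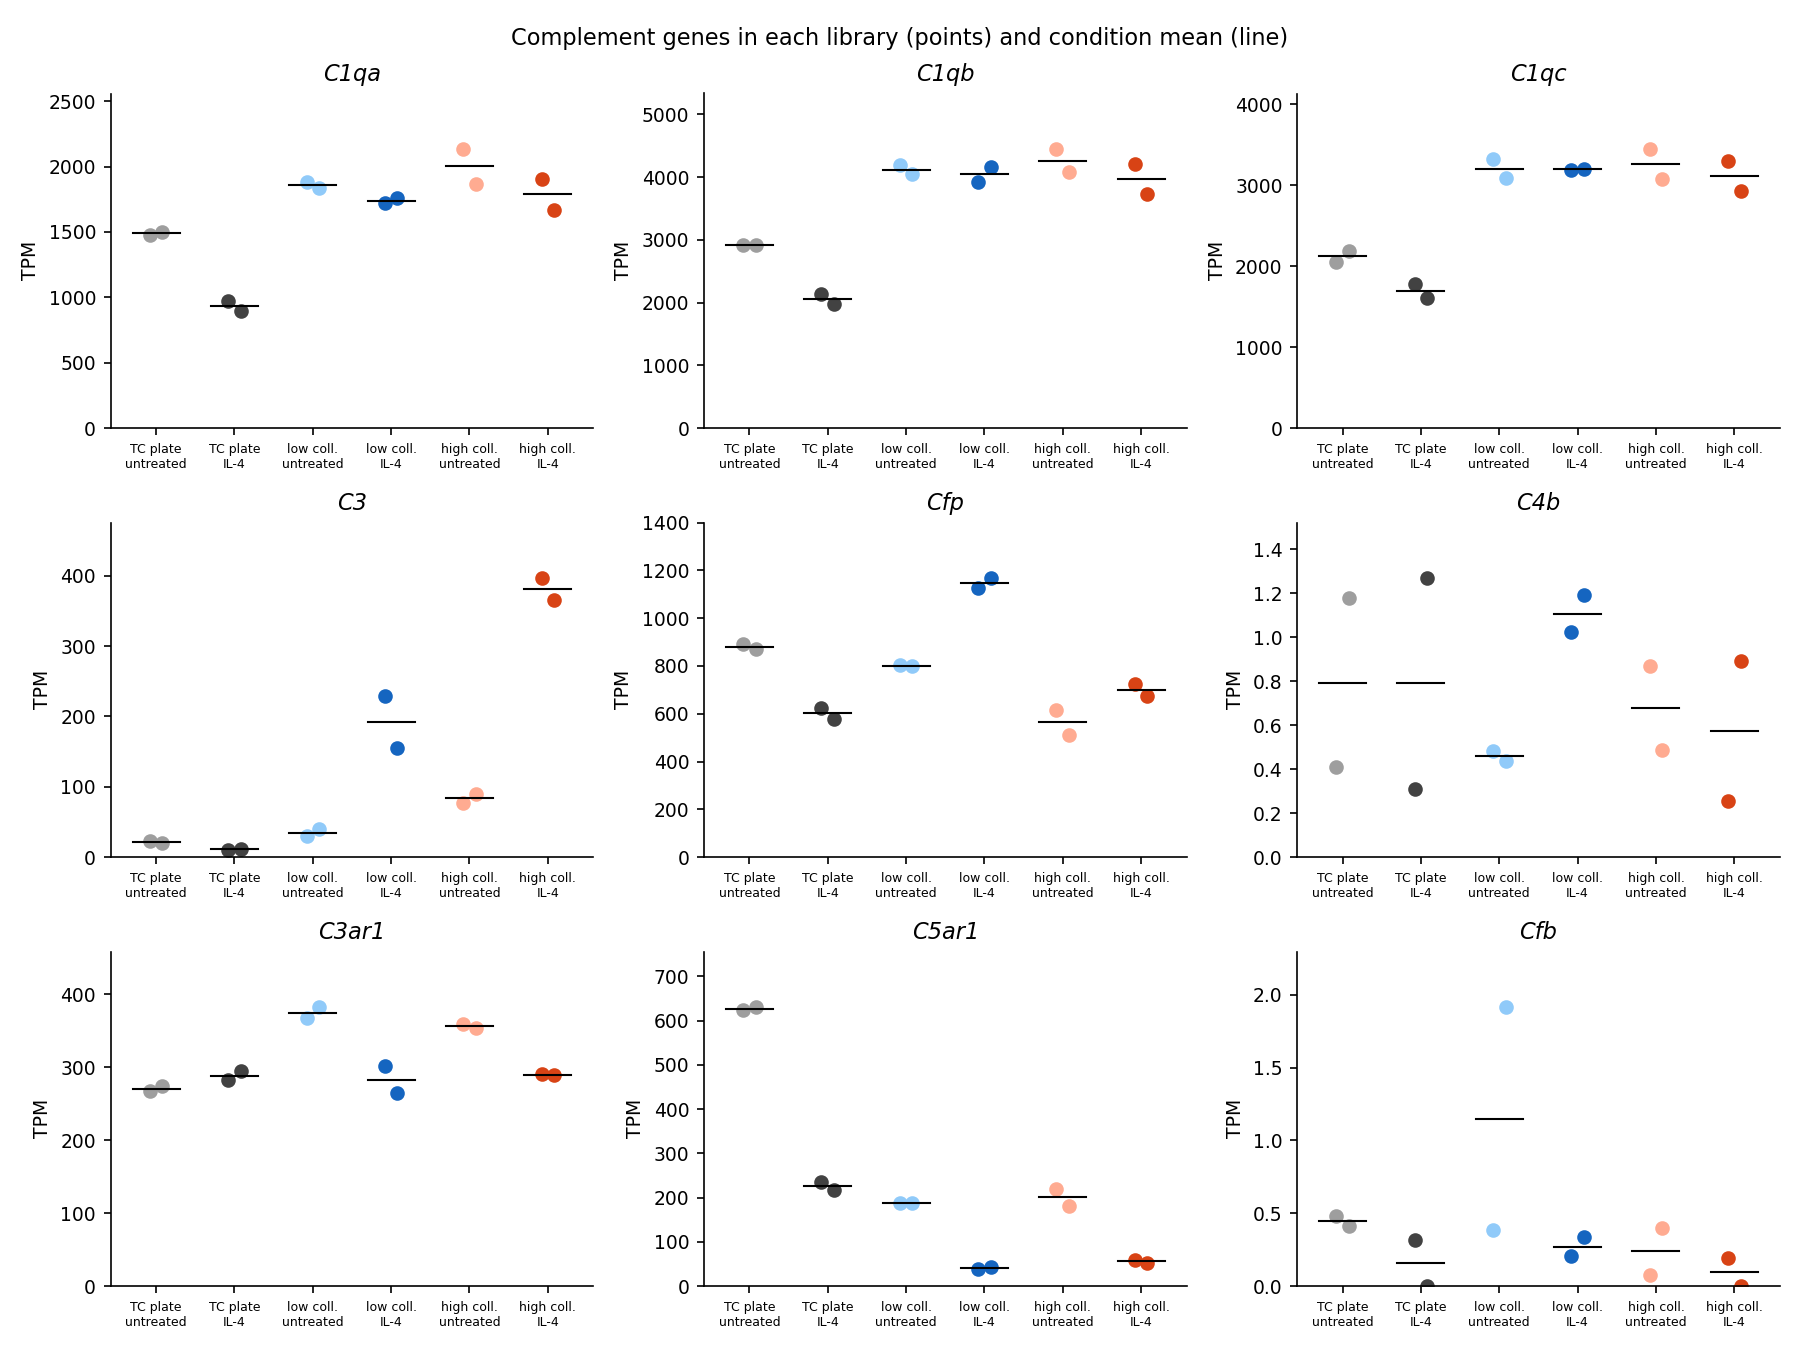
TPM of each of the 9 complement genes (vertical axis, from 0) in the 6 conditions, with points for the 2 libraries of a condition and a line for their mean. C3 is highest under IL-4 in high-collagen gels (396 and 366 TPM), C5ar1 on untreated plates (623 and 630 TPM), and all gel libraries lie above all plate libraries for the C1q genes.

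Collagen concentration was compared first with IL-4 present, the setting in which the study asked how matrix alters the IL-4 program. In high-collagen against low-collagen gels with IL-4, C3 was higher and Cfp lower, C5ar1 was slightly higher, and the C1q genes and C3ar1 were not called. Differences are on the log2(TPM + 1) scale with their SE, and calls were made at an adjusted p below 0.2, the threshold of the study, by limma with Benjamini-Hochberg adjustment over all genes tested. By this rule 3 of the 7 expressed genes were called, against 21.1% of all genes. C3 was higher by 1.01 ± 0.194 (adjusted p = 0.0324 by limma), a ratio of mean TPM of 1.99. The choice of C3 used these gel libraries with IL-4, so its test and its place in this count are not independent of that choice. Cfp changed by -0.71 ± 0.0868 (adjusted p = 0.00986 by limma), which is 1.64 times lower. C5ar1 was higher by 0.44 ± 0.107 (adjusted p = 0.0635 by limma). Its call was lost without replicate 1 of low-collagen gels given IL-4 (adjusted p = 0.206 by limma) or replicate 1 of high-collagen gels with IL-4 (0.228), and over the alternatives it ran from 0.0254 to 0.228. The 95% intervals of the difference were -0.156 to 0.227 for C1qa, -0.201 to 0.142 for C1qb, -0.223 to 0.143 for C1qc and -0.124 to 0.199 for C3ar1.

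Without IL-4, C3 and Cfp differed between the gels in the same directions. Only these 2 of the 7 genes were called, against 8.02% of all genes. C3 was higher in high-collagen gels by 1.25 ± 0.194 (adjusted p = 0.0498 by limma), 2.402 times on the TPM scale. Without replicate 2 of untreated high-collagen gels the difference was 1.15 and its adjusted p by limma 0.213, in a range of 0.0173 to 0.213 over the alternatives. Cfp changed by -0.51 ± 0.0868 (adjusted p = 0.0611 by limma), 1.42 times lower. For C5ar1 the interval was -0.165 to 0.334, for C3ar1 -0.235 to 0.0879, and for the C1q genes it ran from -0.160 at the lowest to 0.292 at the highest.

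IL-4 was compared with no treatment in each setting. C3 was chosen by its IL-4 libraries, higher in gels than on plates, which favours a rise in gels and a fall on plates. Its IL-4 tests, its ranks and its place in the counts of called genes are therefore not independent of that choice. In low-collagen gels C3 and Cfp rose, C5ar1 and C3ar1 fell, and the C1q genes were not called, which made 4 of 7 genes called against 53.6% of all genes. C3 rose by 2.42 ± 0.194 (adjusted p = 0.000100 by limma), 5.51 times on the TPM scale and the 81st largest rise among the 11852 genes tested. Cfp rose by 0.52 ± 0.0868 (adjusted p = 0.00375 by limma). C5ar1 changed by -2.18 ± 0.107 (adjusted p = 7.91e-06 by limma), 4.60 times lower and the 45th largest fall. C3ar1 changed by -0.41 ± 0.0694 (adjusted p = 0.00410 by limma), and by -0.20 after rescaling of the libraries to one median ratio (adjusted p = 0.0524 by limma, the highest over the alternatives, which began at 0.000877). The 95% intervals were -0.289 to 0.0937 for C1qa, -0.198 to 0.145 for C1qb and -0.186 to 0.180 for C1qc.

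In high-collagen gels the directions were the same, again with 4 of 7 genes called, against 34.3% of all genes. C3 rose by 2.18 ± 0.194 (adjusted p = 0.000255 by limma), 4.56 times, the 89th largest rise. C5ar1 changed by -1.82 ± 0.107 (adjusted p = 3.30e-05 by limma), 3.60 times lower and the 58th largest fall, and C3ar1 by -0.30 ± 0.0694 (adjusted p = 0.0252 by limma), or by -0.19 after rescaling (0.0818, in a range of 0.00869 to 0.119). Cfp rose by 0.32 ± 0.0868 (adjusted p = 0.0455 by limma). The Cfp call was lost without replicate 1 of high-collagen gels with IL-4 (0.26, adjusted p = 0.225 by limma), and the rise was 0.18 without replicate 2 of untreated high-collagen gels, in a range of adjusted p of 0.0137 to 0.225 over the alternatives. C1qa was not called at -0.16 ± 0.0823 in this fit, with an interval of -0.354 to 0.0281, but was called without replicate 2 of untreated high-collagen gels (-0.26, adjusted p = 0.130 by limma) and without replicate 1 of high-collagen gels with IL-4 (-0.26, adjusted p = 0.148 by limma), and when the plate libraries joined the fit (adjusted p = 0.177 by limma), in a range of 0.130 to 0.774. C1qb (-0.275 to 0.0684) and C1qc (-0.249 to 0.117) were not called.

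The difference between the IL-4 responses in high- and low-collagen gels was tested as an interaction. Limma called 0 of the 7 genes, 0 had an unadjusted p under 0.05, and 0.363% of all genes were called. For C3 the interaction was -0.24 ± 0.274 (95% interval -0.877 to 0.397) and for C5ar1 0.35 ± 0.152 (-0.000347 to 0.705).

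On TC plates, 6 of the 7 genes were called lower with IL-4 and none of the 7 higher. Of all 11865 genes tested, 38.8% were called in either direction, 2853 lower and 1745 higher. C3 changed by -0.90 ± 0.188 (adjusted p = 0.00691 by limma), 1.93 times lower. C1qa changed by -0.67 ± 0.0772 (adjusted p = 0.000169 by limma), C1qb by -0.50 ± 0.0694 (0.000605) and C1qc by -0.32 ± 0.0798 (0.0163). Cfp changed by -0.55 ± 0.0801 (adjusted p = 0.000801 by limma) and C5ar1 by -1.46 ± 0.0964 (4.17e-06), 2.76 times lower. C3ar1 was 0.09 ± 0.0624 higher (adjusted p = 0.349 by limma, interval -0.0492 to 0.231), and it was called after rescaling (0.15, adjusted p = 0.0679 by limma), where the split was 1 higher and 6 lower. The range of its adjusted p over the alternatives was 0.0679 to 0.682.

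C5ar1 alone of the 7 genes was called lower with IL-4 in all 3 settings. The IL-4 differences of C3 and Cfp had opposite signs in gels and on plates, with each call as given above. For low-collagen gels, the response to IL-4 minus that on plates was 3.31 for C3, 1.07 for Cfp, 0.58 for C1qa, 0.47 for C1qb, 0.32 for C1qc, -0.50 for C3ar1 and -0.71 for C5ar1. In high-collagen gels the same difference was 3.07 for C3, 0.87 for Cfp, 0.51, 0.39 and 0.25 for C1qa, C1qb and C1qc, -0.39 for C3ar1 and -0.36 for C5ar1. These differences contain the comparison by which C3 was chosen and were not tested, and both share the plate libraries.

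**Figure D2:**
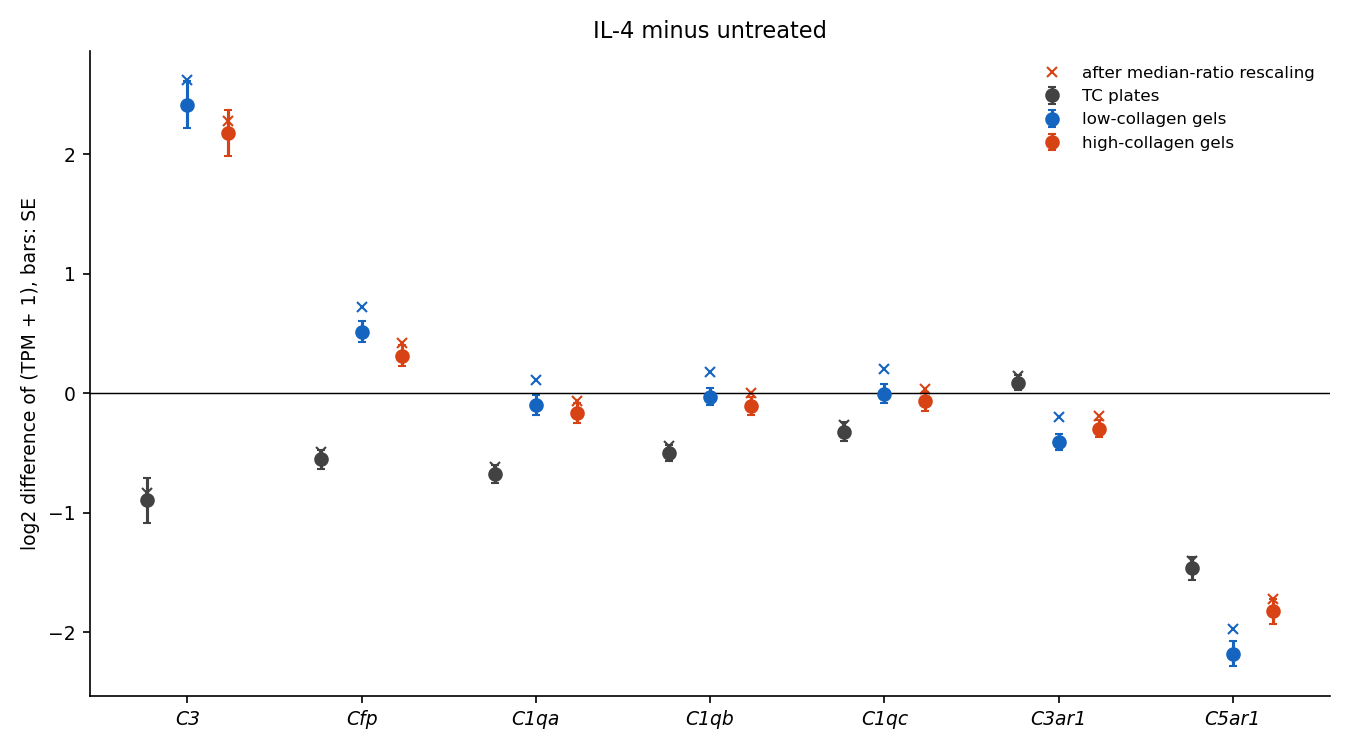
IL-4 minus untreated on the log2(TPM + 1) scale (vertical axis) for the 7 expressed genes, with dots for the estimate on TC plates and in gels of low and high collagen, bars for the SE, and crosses for the estimate after rescaling. C3 is at -0.90 on plates and at 2.42 and 2.18 in gels, whereas C5ar1 is below 0 in all 3 settings.

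Gels were compared with plates without IL-4, in libraries that the choice of C3 had not used. The C1q genes, C3 and C3ar1 were higher in both gels and C5ar1 was lower. All 7 genes were called in low-collagen gels, 5 higher and 2 lower, against 72.8% of all genes, and all 7 in high-collagen gels, 5 higher and 2 lower, against 73.5%. Since most genes differed between gels and plates, the count says little about these 7, and their sizes are given instead. The median difference of all genes was -0.13 and -0.16, and that of the 7 genes 0.47 and 0.42. Both comparisons share the untreated plate libraries.

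C3 was higher by 0.68 ± 0.188 in low-collagen gels (adjusted p = 0.0108 by limma), 1.64 times, and by 1.93 ± 0.188 in high-collagen gels (adjusted p = 1.35e-05 by limma), 3.94 times. Among the C1q genes, C1qc was higher by 0.60 ± 0.0798 and 0.62 ± 0.0798 (adjusted p = 0.000129 and 9.30e-05 by limma), C1qb by 0.50 and 0.55 and C1qa by 0.32 and 0.42, between 1.25 and 1.54 times on the TPM scale for all 3, and after rescaling C1qa was higher by 0.495 in low-collagen gels. C3ar1 was higher by 0.47 ± 0.0624 and 0.39 ± 0.0624 (adjusted p = 0.000126 and 0.000370 by limma). C5ar1 changed by -1.73 ± 0.0964 and -1.64 ± 0.0964 (adjusted p = 4.32e-07 and 5.38e-07 by limma), 3.32 and 3.12 times lower.

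Cfp changed by -0.65 ± 0.0801 in high-collagen gels (adjusted p = 6.95e-05 by limma). In low-collagen gels it was only 0.14 lower (-0.14 ± 0.0801, adjusted p = 0.169 by limma), its unadjusted p was 0.120, and the call was lost when any 1 of the 4 libraries was left out. After rescaling it was 0.04 higher (adjusted p = 0.760 by limma), which left 6 genes called, 5 higher and 1 lower. The adjusted p of Cfp ranged from 0.0745 to 0.760 over the alternatives.

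With IL-4, the comparison that led to the choice, the values are a description. Gel libraries lay above plate libraries for C3, Cfp and the C1q genes and below them for C5ar1, and they overlapped for C3ar1, in both gels. The share of all genes whose gel and plate libraries did not overlap was not counted. Limma called 75.1% (low collagen) and 74.6% (high collagen) of all genes. C3 was 3.99 higher in low-collagen gels, 17.5 times on the TPM scale and the 7th largest rise of 11865 genes, and 5.00 higher in high-collagen gels, 34.7 times and the largest rise. The C1q genes were 1.83 to 1.96 times as high in the gels as on plates, Cfp was 1.91 and 1.16 times as high, and C5ar1 was 5.53 and 4.05 times lower. C3ar1 differed by -0.03 and 0.01. After rescaling, C3ar1 was higher by 0.29 and 0.25, and Cfp in high-collagen gels by 0.46 in place of 0.22.

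The 8 neutrophil markers checked summed to 5.25 to 10.6 TPM in plate libraries and 14.6 to 34.6 TPM in gel libraries. Of this list only S100a9 had all gel libraries (7.87 to 17.75 TPM) above all plate libraries (0.422 to 3.59 TPM). S100a8 overlapped, at 2.93 to 12.47 TPM in gels and 2.79 to 6.17 TPM on plates. S100a8 and S100a9 made up most of that sum, 3 of the 8 reached a mean of 1 TPM, and Ly6g was at 0 in all 12 libraries. Within the gels this sum was 24.6 to 34.6 TPM (low collagen, untreated), 16.7 to 23.2 (low collagen, IL-4), 16.3 to 20.0 (high collagen, untreated) and 14.6 to 15.8 (high collagen, IL-4). The macrophage marker sum was 27260 and 27861 TPM on untreated plates, 17459 and 17463 on plates with IL-4, 42962 and 45781 in untreated low-collagen gels, 30615 and 31809 with IL-4, 53412 and 53481 in untreated high-collagen gels and 35574 and 37529 with IL-4. Most of this sum was Lyz2, at condition means of 13263 to 48889 TPM. Other markers of the list had other orders: Cd68 had means of 2257 TPM on untreated plates, 2818 on plates with IL-4, 1799 and 1441 in untreated low- and high-collagen gels and 2618 and 2189 in these gels with IL-4, whereas Adgre1 was lowest on untreated plates (378 TPM) and highest in high-collagen gels with IL-4 (748 TPM). Their part in the differences between gels and plates was not tested.

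**Figure D3:**
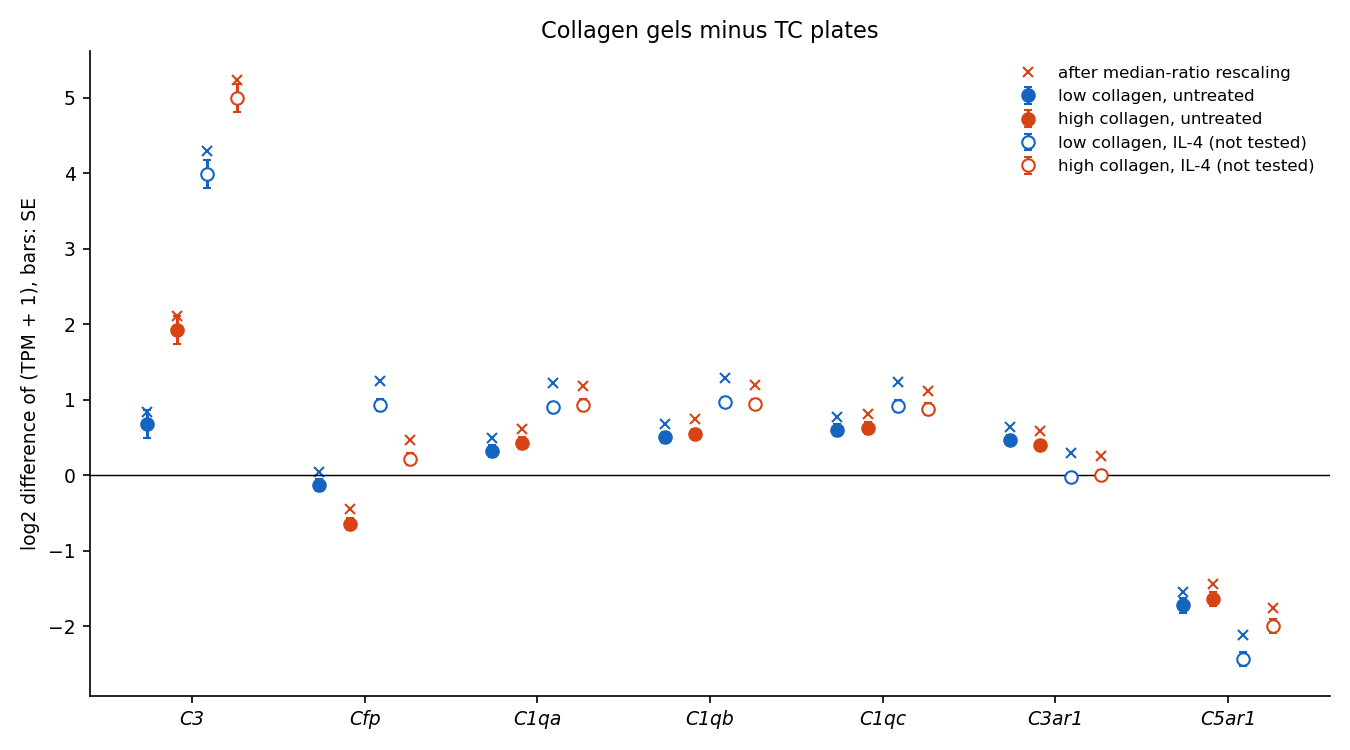
Collagen gels minus TC plates on the log2(TPM + 1) scale (vertical axis) for the 7 expressed genes, with filled dots for untreated cells, open dots for cells with IL-4 (not tested), bars for the SE, and crosses for the estimate after rescaling. C3 reaches 5.00 in high-collagen gels with IL-4 and C5ar1 is below 0 in every comparison.

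Ratios within a library do not depend on its scaling. C3ar1 was below C5ar1 on untreated plates, at a ratio of 0.432 ± 0.00398 (SD, n = 2), and above it everywhere else. The ratio was 1.28 ± 0.114 on plates with IL-4, 1.99 ± 0.0527 and 1.79 ± 0.228 in untreated low- and high-collagen gels, and 6.93 ± 0.992 and 5.21 ± 0.471 in these gels with IL-4. The untreated plates were separate from all others, and so were the gels with IL-4. The C1q chains kept closer proportions: C1qb to C1qc was 1.22 to 1.38 over the condition means, and C1qa to C1qc was 0.544 to 0.703, with its highest value on untreated plates (0.722 and 0.685). Over the 12 libraries, log2 levels of C1qa and C1qb had a Pearson correlation of 0.978, C1qb and C1qc of 0.987, and C3 and C5ar1 of -0.819, where the libraries share their conditions. C1qc exceeded C3 by 100.3 times on untreated plates, 157 times on plates with IL-4 and 8.16 times in high-collagen gels with IL-4.

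**Figure D4:**
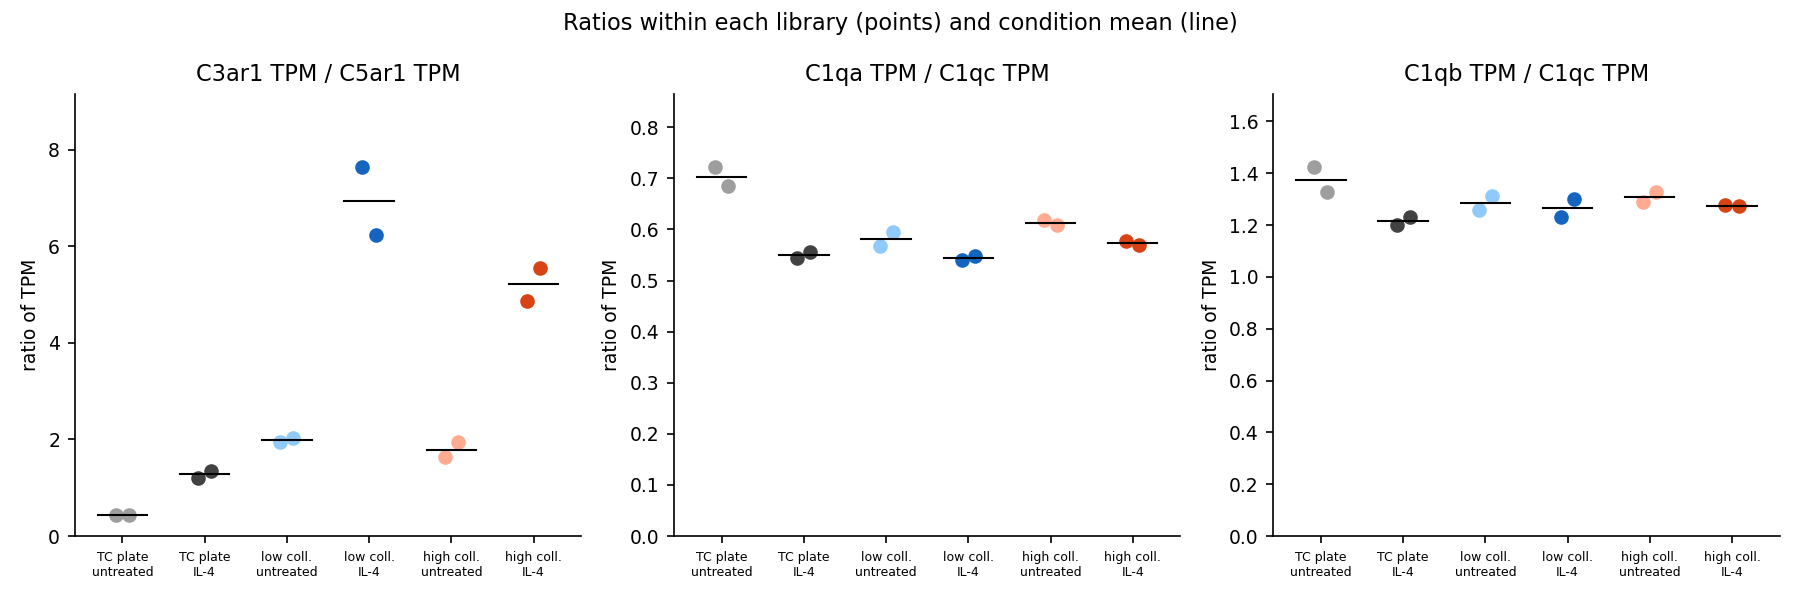
Ratio of C3ar1 to C5ar1, of C1qa to C1qc and of C1qb to C1qc TPM within each library (vertical axes, from 0) in the 6 conditions, with points for libraries and lines for means. The C3ar1 to C5ar1 ratio is 0.432 on untreated plates and 6.93 with IL-4 in low-collagen gels, and the condition means of the C1q ratios run from 0.544 to 0.703 and from 1.22 to 1.38.

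The rest of the complement system was read from a list of 45 other genes, of which 44 were in the table and 16 had a mean of at least 1 TPM. Of 15 genes listed under the early classical and lectin pathways, including related collectins, 4 were expressed (C1ra, C2, Fcna and Colec12). Of 7 terminal pathway genes 1 was expressed (C8g), of 6 membrane regulators 4 and of 8 receptors 6. Cfd, the alternative pathway protease factor D, was listed at 0 in all 12 libraries. With IL-4, 9 of the 16 were called in low-collagen gels (4 higher, 5 lower, against 53.6% of all genes), 9 in high-collagen gels (3 higher, 6 lower, against 34.3%) and 9 on plates (2 higher, 7 lower, against 38.8%). Between high and low collagen 6 were called with IL-4 (4 higher, 2 lower, against 21.1%) and 4 without (1 higher, 3 lower, against 8.02%), and limma called 0 by interaction (against 0.363%), with 3 at an unadjusted p under 0.05. Against plates without IL-4, 13 were called in each gel (7 higher, 6 lower), where 72.8% and 73.5% of all genes were called.

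Genes are named where a called change was at least 1 on the log2 scale, and receptors were among them. Itgax, the alpha chain of complement receptor CR4, had 12.6 and 13.4 TPM on untreated plates and 138 and 130 TPM with IL-4, 2.67 and 1.81 TPM in untreated low-collagen gels and 94.6 and 86.8 TPM with IL-4, and 2.37 and 2.56 TPM in untreated high-collagen gels and 46.2 and 54.4 TPM with IL-4. Its IL-4 rise was 3.27, 4.84 and 3.88 (adjusted p = 1.98e-07, 9.92e-07 and 4.53e-06 by limma). Itgb2, the beta chain shared by these receptors, was 500 to 612 TPM on plates and 277 to 318 TPM in gels, a change of -1.08 in untreated low-collagen gels. C5ar2, the second C5a receptor, fell with IL-4 by 1.44 in low-collagen gels, 1.19 in high-collagen gels and 1.01 on plates (adjusted p = 0.000323, 0.00128 and 0.000449 by limma), the same direction as C5ar1. Without IL-4 it was 8.73 and 9.33 TPM on plates and 14.7 to 17.3 TPM in gels, whereas C5ar1 was lower in gels.

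C8g, a terminal pathway chain, was higher in untreated gels than on plates by 1.79 and 1.97, Cd46, a membrane regulator, by 1.02 and 1.06, and C1ra, a classical pathway protease, by 1.10 in high-collagen gels, from levels of at most 2.95 TPM on untreated plates. C1qbp, named as a C1q-binding protein and located mainly in mitochondria, was lower by 1.09 and 1.51 than on plates.

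**Figure D5:**
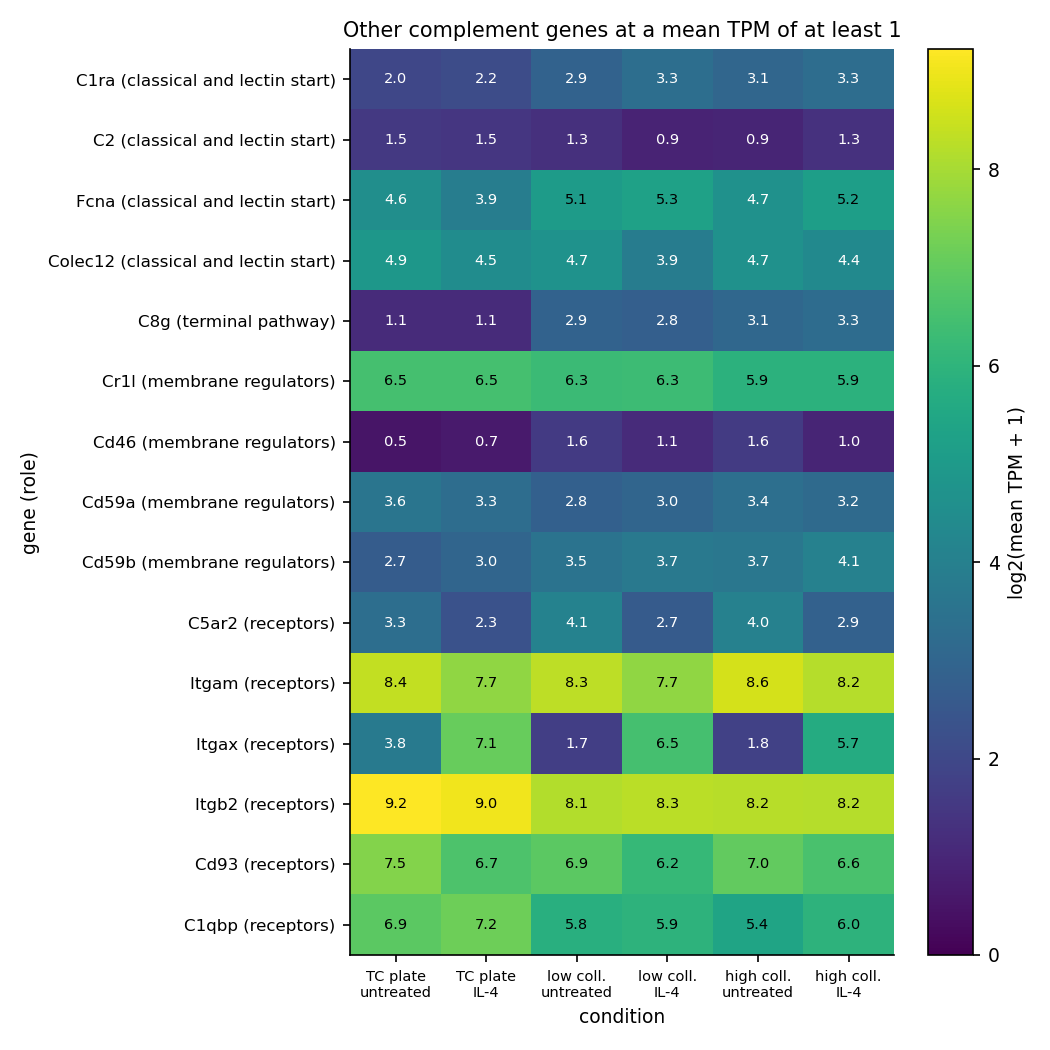
Heat map of log2(mean TPM + 1) for 15 other complement genes at a mean of at least 1 TPM (rows, with their role) in the 6 conditions (columns), with the value in each cell. Itgax is higher with IL-4 in every setting, and C8g is higher in every gel condition than on plates.

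The genes whose levels most resembled C3 over the 12 libraries, among 9663 genes with a mean of at least 5 TPM, were Cd52 (Pearson r = 0.966), Os9 (0.963), Vhl (0.958), Slamf7 (0.944) and Ly9 (0.942). Cd52, which encodes a small surface glycoprotein of leukocytes, had condition means of 580 TPM on plates with IL-4 and 1717 TPM with IL-4 in high-collagen gels. The genes most like the mean of the C1q genes were Pld4 (r = 0.981), Tlr9 (0.980), Egln3 (0.979), Rbpms (0.978) and Tnfaip8l2 (0.976). Pld4, which encodes an endosomal nuclease, had condition means of 192 TPM on plates with IL-4 and 575 TPM in high-collagen gels with IL-4. These likenesses describe 12 libraries that fall into 6 conditions and carry no test.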

How the data were processed

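RNA-seq of BMDMs was analysed in 12 libraries, 2 in each of 6 conditions taken from the sample labels. The authors made stranded mRNA libraries, sequenced paired ends of 38 bases, quantified transcripts with kallisto 0.46.1 on the GRCm38 transcriptome and deposited 1 table of TPM per gene and library. How transcripts were summed to genes is not given in the sources used here. TPM keep no depth, and reads shared between similar genes are divided by kallisto, so a 0 can be a failed estimate. The table held 34456 lines, of which 129 repeats were collapsed. The libraries totalled 997505 to 997977 TPM.

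Values were taken as log2(TPM + 1), so fold changes of low genes are understated, for genes whose TPM averaged 1 or more. Limma 3.58.1 in R 4.3.3 fitted 1 mean per condition with moderated variances that follow a trend over the mean, and p-values were adjusted over all genes tested by the Benjamini-Hochberg method. The 8 gel libraries (11852 genes) served comparisons among gels, and all 12 (11865 genes) those with plates. Calls were made below an adjusted p-value of 0.2. The fit was tested on simulated data. Other steps ran in python 3.11.15 with numpy 2.4.6, pandas 2.3.3 and, for figures, matplotlib 3.10.9. The members, gene lists and tests were chosen with earlier results of these data known. All 9 members are named, and other complement genes where called with a change of at least 1, apart from results that are not reported here. Where an Itgam identifier was repeated, the one with the higher mean was kept. Other settings tried were no filter, a filter at a mean TPM of 5, a pseudocount of 0.1, no trend, median-ratio rescaling, a replicate block, other libraries in the fit, an adjusted p-value under 0.05 and each library left out. Locations and shared 31-base words are from GENCODE for GRCm38.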

Additional observations from a re-analysis of the deposited data

Results flagged for a closer look

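C3, Cfp and C3ar1 moved with IL-4 in opposite directions in gels and on TC plates in all libraries compared. The share of all genes that did the same was not counted, so this is no result about the members as a group. For C3 the response to IL-4 in low-collagen gels exceeded that on plates by 3.31 on the log2(TPM + 1) scale, and that in high-collagen gels by 3.07. For Cfp the same differences were 1.07 and 0.87. For C3ar1 they were -0.50 and -0.39, where the small rise on plates was not itself called. These differences were not tested, because C3 was chosen by its values in gels and on plates with IL-4, and both use the same plate libraries.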

How the results depend on the processing

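Counts of called members stayed within 1.5 times under all alternatives except for high against low collagen without IL-4, where the count of 2 became 1 at an adjusted p-value under 0.05 and 1 to 2 with a library left out. C3 kept its direction in every tested comparison except the interaction, and its calls under all alternatives except for high against low collagen without IL-4, given above. Median-ratio rescaling raised IL-4 and gel values of most members, since the median difference of all genes was -0.19 (IL-4, low collagen) and -0.13 (untreated low-collagen gels against plates) before it and -0.00 and 0.02 after it.

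Members with differences near 0 changed sign under rescaling. None of these was called after it, and only Cfp in untreated low-collagen gels against plates had been called before it. With IL-4 in low-collagen gels C1qa was 0.11, C1qb 0.18 and C1qc 0.21, and in high-collagen gels C1qb was 0.00032 and C1qc 0.037. In high against low collagen with IL-4 C1qa was -0.041 and C3ar1 -0.039. In low-collagen gels against plates C3ar1 (not tested) was 0.29 with IL-4 and Cfp was 0.037 without IL-4. The Cfp call in that comparison, at an adjusted p of 0.169 by limma, was also lost with no filter (0.287) and no trend (0.261). With no filter the IL-4 rise of C4b in low-collagen gels was called (0.53, adjusted p = 0.191 by limma), from levels near 1 TPM.

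With each library left out in turn, the ranges that crossed 0 were -0.069 to 0.017 (C1qb) and -0.056 to 0.050 (C1qc) for IL-4 in low-collagen gels and -0.15 to 0.020 (C1qc) in high-collagen gels. For high against low collagen with IL-4 they were -0.061 to 0.13 (C1qa), -0.12 to 0.059 (C1qb), -0.13 to 0.046 (C1qc) and -0.054 to 0.13 (C3ar1), and without IL-4 -0.015 to 0.11 (C1qb), -0.059 to 0.11 (C1qc) and -0.055 to 0.22 (C5ar1). For the interaction they were -0.52 to 0.036 (C3), -0.16 to 0.031 (C1qa), -0.17 to 0.012 (C1qb) and -0.15 to 0.023 (C1qc). For C3ar1 against plates with IL-4 they were -0.12 to 0.062 (low collagen) and -0.025 to 0.040 (high collagen). None of these was called with all libraries. The cause of these changes was not tested.

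The replicate numbers follow the order of the library numbers in the labels, which name no pairing. The correlation of replicate deviations between conditions was -0.123 to 0.109, which cannot decide whether libraries were paired. With the replicate block 4 members were called for IL-4 in low-collagen gels and 5 in high-collagen gels, where C1qa was added (adjusted p = 0.196 by limma), and no other call of a member changed. Depth is unknown, so no counting limit can be given.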
